A study of Rattus norvegicus with 12 samples.

Results

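The collagen chain genes, named Col followed by the type and the chain, were chosen by symbol alone: every probe set whose only annotated gene has such a symbol was taken, and a gene with several probe sets was represented by the one with the highest mean. This gave 41 genes, measured by 58 probe sets, of 14217 named genes on the array. No measured value other than that mean entered this rule, but the genes were chosen with earlier results of these data known. The genes were divided into 11 fibrillar chains, 7 chains of basement membrane collagens and 23 other chains.

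Collagens are trimers of 3 chains wound around each other. Types I and III form the bulk of the fibrils of muscle connective tissue, and types V and XI lie inside such fibrils and set their width. Type IV builds the sheet-like network of the basement membrane around each muscle fibre, where types XV and XVIII are also found. Type VI forms beaded filaments that link this membrane to the fibrils, and the fibril-associated types XII, XIV and XVI decorate fibril surfaces. Fibroblasts make most interstitial collagen in muscle, and collagen that builds up between the fibres is a known feature of long denervation.

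RNA came from the gastrocnemius of the calf. The left sciatic nerve of each rat, a male of the Wistar-Hannover strain, had been cut, so the muscles of all groups had lost their motor nerve supply. Dosing was for 7 days, with vehicle or with nandrolone, an androgen that builds muscle. Tissue was taken on day 7, with dosing begun on the day of surgery, or on day 35, with dosing begun 29 days later. The 4 groups, vehicle day 7, nandrolone day 7, vehicle day 35 and nandrolone day 35, held 3 arrays each, 12 in all. The ages of the rats are not given in the sources used here and no innervated muscle was analysed here, so age and time since the nerve was cut cannot be told apart. The samples were whole muscle: fewer cells of a type and less RNA per cell cannot be told apart.

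All 13 skeletal muscle markers were measured, with a summed signal of 149781 to 168394 per array. One array stood apart: nandrolone day 35 replicate 3 had a median signal of 111.05 against 44.8 to 63.5 in the other arrays, and its mean Pearson r with the arrays of its group was 0.90. Values below are log2(signal + 16) after quantile normalisation, and changes that rest on this array are given with and without it. As a measure of RNA integrity, the actin probe sets near the 3′ and 5′ ends gave ratios of 3.13, 2.68 and 3.71 at vehicle day 35 and of 2.57, 2.12 and 1.90 at nandrolone day 35, with no overlap. At day 7 these were 2.81, 2.11 and 2.25 with vehicle and 2.79, 2.29 and 2.08 with nandrolone. Precision is limited by the 3 arrays per group. Changes are log2 differences with the standard error from limma after ±, and an adjusted p below 0.05 over all 18625 tested probe sets counts as a call.

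The filter on low signals, which left out the lowest 40% of probe sets by mean, kept 29 of the 41 genes: 9 fibrillar, 5 basement membrane and 15 other chains. The 12 genes that were not tested were the fibrillar Col2a1 and Col27a1, the basement membrane chains Col4a4 and Col4a6, and Col6a5, Col9a1, Col9a2, Col9a3, Col10a1, Col13a1, Col17a1 and Col20a1. Their median deposited signals over the 12 arrays lay between 1.85 and 32. Several of these belong to cartilage in other settings, such as the types II, IX and X. Col13a1, a transmembrane collagen of the neuromuscular junction, had a median signal of 12.95.

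Promoters of 32 of the 41 genes were in the RefSeq table of the rat assembly GRCr8, each 250 bases before to 50 after the start of the gene. The 3 below are shown because Col1a2 belongs to the type I trimer, Col5a2 had one of the largest differences between the days, and Col4a1 shares its promoter with Col4a2. They are written 5′ to 3′ on the strand of the gene, and capitals mark the 3 motifs named after them, on either strand.
Col1a2 chr4:33518307-33518606 (plus strand): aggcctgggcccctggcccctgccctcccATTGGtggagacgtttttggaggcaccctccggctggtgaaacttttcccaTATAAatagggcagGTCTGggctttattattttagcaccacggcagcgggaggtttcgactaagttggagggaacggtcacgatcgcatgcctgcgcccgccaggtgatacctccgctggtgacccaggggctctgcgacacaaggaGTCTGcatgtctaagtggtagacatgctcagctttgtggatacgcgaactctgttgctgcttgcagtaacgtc
Col5a2 chr9:55090102-55090401 (minus strand): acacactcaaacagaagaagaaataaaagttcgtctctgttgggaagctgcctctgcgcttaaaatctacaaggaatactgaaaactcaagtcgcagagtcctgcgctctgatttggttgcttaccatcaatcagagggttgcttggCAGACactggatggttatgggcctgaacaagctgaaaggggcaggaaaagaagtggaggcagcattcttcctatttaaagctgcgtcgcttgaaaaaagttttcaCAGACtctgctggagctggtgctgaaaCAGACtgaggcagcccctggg
Col4a1 chr16:84885347-84885646 (plus strand): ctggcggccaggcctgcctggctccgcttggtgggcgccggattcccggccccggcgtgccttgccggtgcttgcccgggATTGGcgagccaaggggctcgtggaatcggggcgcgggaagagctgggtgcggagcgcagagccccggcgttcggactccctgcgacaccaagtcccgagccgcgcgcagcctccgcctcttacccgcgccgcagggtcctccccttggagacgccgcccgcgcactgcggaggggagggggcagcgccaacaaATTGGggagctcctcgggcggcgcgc
The first motif, CCAAT, printed as ATTGG where it lies on the other strand, is the box bound by the CCAAT-binding factor. The next, TATAA, whose other strand reads TTATA, is a form of the TATA box. The last, CAGAC, whose other strand reads GTCTG, holds the core letters that Smad proteins of the TGF-beta pathway bind. The Col1a2 window held 1 CCAAT, 1 TATAA and 2 CAGAC, the Col5a2 window 3 CAGAC, and the Col4a1 window 2 CCAAT. None of the 3 motifs contains another. The windows of Col4a1 and Col4a2 overlap by 176 bases, since these genes start 77 bases apart on chromosome 16 and are read in opposite directions. The 32 genes had 35 promoter windows, since Col24a1 has 3 and Col6a5 has 2. Of these windows 10 held CCAAT (28.6%), 7 TATAA (20%) and 14 CAGAC (40%). Of all 33469 promoter windows given there, 37.5% held CCAAT, 26.2% TATAA and 50.1% CAGAC. A match describes the letters and is not a shown binding site.

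**Figure D1:**
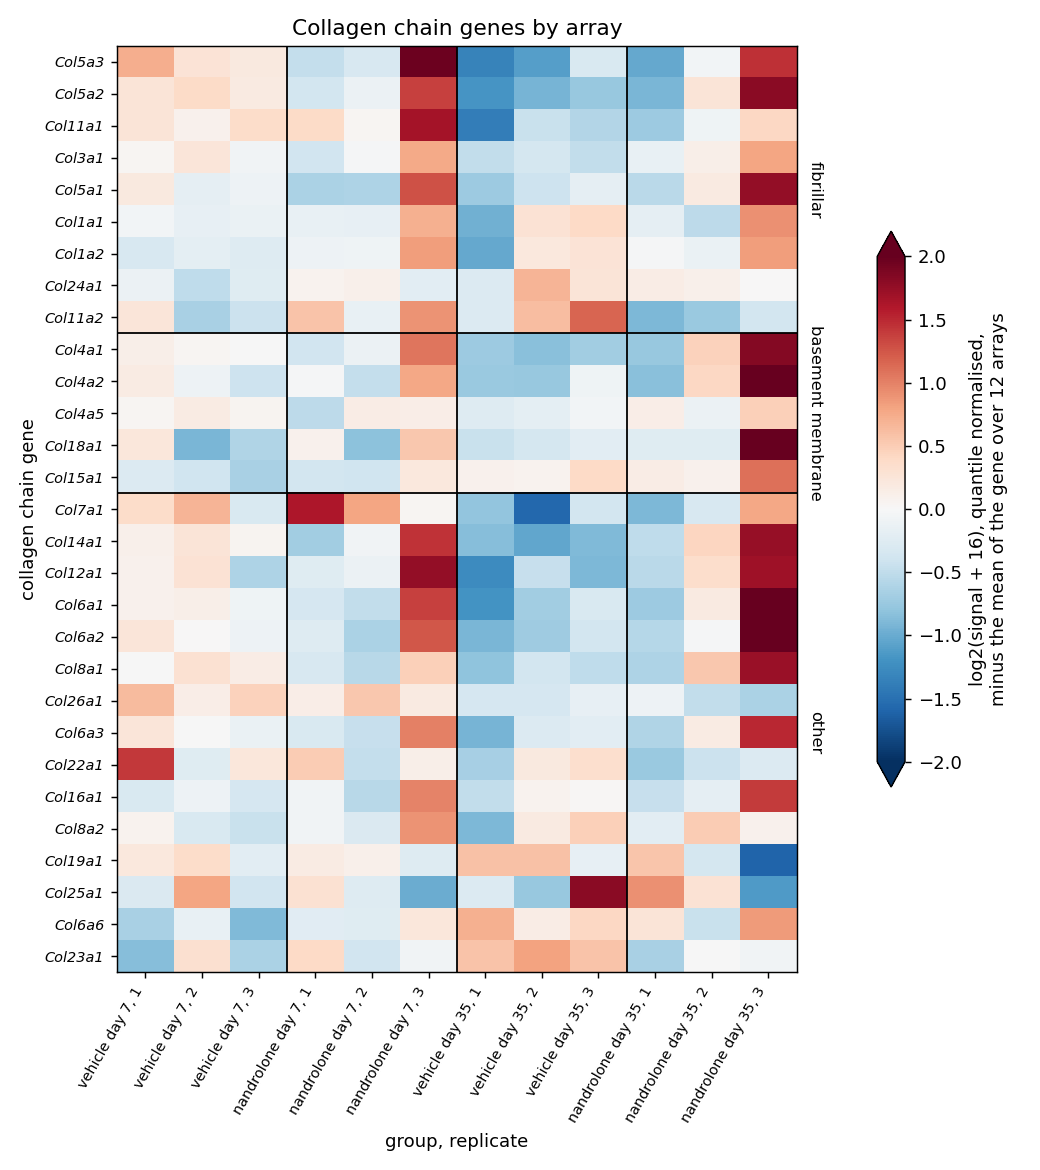
Normalised log2 signal of the 29 tested collagen genes on each of the 12 arrays, minus the mean of the gene over the arrays. Rows are genes in 3 classes, columns are arrays in 4 groups, red is above and blue below the mean of the gene. The columns of nandrolone day 7 replicate 3 and nandrolone day 35 replicate 3 are red in most rows, and the 3 columns of vehicle day 35 are mostly blue.

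The first comparison was between day 35 and day 7 in the rats given vehicle. By the sign of the change alone, 17 of the 29 tested genes were lower at day 35 and 12 were higher. All 3 tested type IV chains, 3 of 4 type VI chains and 5 of 9 fibrillar chains were among the lower ones, and of these only Col4a2 overlapped between the days. The chains of type I were not lower, and Col15a1, Col6a6 and Col23a1 were higher without overlap. In 14 of the 29 tested genes (48.3%) all 3 arrays of day 35 lay below all 3 of day 7, against 16.7% of all those tested; in 3 genes (10.3%) they lay above, against 18.5%. The median change was -0.42 over the fibrillar, -0.26 over the basement membrane and -0.51 over the other chains, and 0 over all tested probe sets. Without vehicle day 35 replicate 1 the fibrillar median was 0.07 over the 10 chains that then passed the filter and -0.27 over the 9 chains of the vehicle fit. In the limma fit of all 12 arrays no collagen gene passed, against 5.61% of all tested probe sets, and 7 genes (24.1%) had an unadjusted p under 0.05 against 23.3%. In the fit of the 6 vehicle arrays alone 11 genes passed (37.9%, against 13.7% of all): 9 were lower (31%, against 6.19%) and 2 higher (6.9%, against 7.47%). The changes are the same in both fits, and only the estimate of the spread differs: the nandrolone arrays, which enter it in the first, had the wider replicate spreads given further on.

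Among the fibrillar chains, Col5a2 had signals of 11.34, 11.47 and 11.27 at vehicle day 7 and of 9.91, 10.16 and 10.33 at vehicle day 35. The 2 days did not overlap. Col5a2 encodes the second chain of type V, the fibril core collagen, and its level was 2.33-fold lower (-1.22 ± 0.55, adjusted p = 0.204 in limma with 12 arrays; -1.22 ± 0.13, adjusted p = 0.00147 with the 6 vehicle arrays). Col5a3, a further chain of this type, stood at 8.91, 8.45 and 8.38 and then at 6.85, 7.08 and 7.88, a change of -1.31 ± 0.27 (adjusted p = 0.0150 with 6 arrays). Col5a1, its first chain, was at 9.47, 9.08 and 9.16 and then at 8.54, 8.85 and 9.08; the arrays did not overlap, but the change of -0.42 ± 0.18 did not pass (adjusted p = 0.151 with 6 arrays). Type V was therefore lower in all 3 of its chains by group, with 2 of them called in the 6-array fit.

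Col3a1, the single chain of type III, the collagen of fine reticular fibrils, was at 13.05, 13.26 and 12.95 and then at 12.53, 12.66 and 12.53. Its arrays did not overlap and the change was small and even (-0.51 ± 0.10, adjusted p = 0.0127 with 6 arrays; adjusted p = 0.262 with 12). Col11a1, the type XI chain that sits in fibril cores, was at 7.77, 7.59 and 7.88 and then at 6.13, 7.07 and 6.92 (-1.04 ± 0.25, adjusted p = 0.0269 with 6 arrays). Col11a2, the partner chain of type XI, moved the other way without a call, from 6.16, 5.28 and 5.50 to 5.65, 6.54 and 7.09 (0.78 ± 0.38 with 6 arrays), and its days overlapped. Col24a1, a minor fibrillar chain, stood at 0.51 ± 0.28 and overlapped as well.

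The chains of type I, the main collagen of tendon and of the muscle's connective tissue, behaved otherwise. Col1a1 was at 12.74, 12.62 and 12.66 at day 7 and at 11.82, 13.08 and 13.19 at day 35, and Col1a2 at 12.49, 12.61 and 12.55 and then at 11.78, 13.02 and 13.09. In both, replicate 1 of vehicle day 35 lay below every day 7 array and the other 2 above every one. The changes were 0.02 ± 0.30 and 0.08 ± 0.29 in the 6-array fit, with 95% intervals of -0.65 to 0.69 and -0.57 to 0.74. Without vehicle day 35 replicate 1 both were called higher in the fit of the remaining 5 vehicle arrays. The same array had the lowest value of its group in 20 of the 29 genes (69%), against 26.9% of all tested probe sets.

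In the basement membrane class, Col4a1 had signals of 10.65, 10.57 and 10.52 at vehicle day 7 and of 9.81, 9.69 and 9.84 at vehicle day 35. This first chain of type IV was 1.75-fold lower (-0.80 ± 0.11, adjusted p = 0.00378 with 6 arrays; adjusted p = 0.363 with 12). Col4a2, which joins it in the common type IV trimer, was at 9.64, 9.38 and 9.07 and then at 8.74, 8.73 and 9.39 (-0.41 ± 0.22, adjusted p = 0.231 with 6 arrays), and 1 day 35 array lay among those of day 7. Col4a5, a chain of a less common type IV trimer, was lower without overlap but by only -0.26 ± 0.14. Col15a1, an outer basement membrane collagen found in muscle and vessels, went from 9.50, 9.37 and 9.12 to 9.85, 9.84 and 10.17 (0.62 ± 0.15, adjusted p = 0.0290 with 6 arrays). Its relative Col18a1, from which endostatin is cut, changed by 0.10 ± 0.27.

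Of the type VI chains, Col6a1 was at 10.61, 10.64 and 10.43 and then at 9.33, 9.83 and 10.21, and Col6a2 at 10.18, 9.95 and 9.85 and then at 9.03, 9.24 and 9.58. Both were called lower in the 6-array fit (-0.77 ± 0.20, adjusted p = 0.0376; -0.71 ± 0.17, adjusted p = 0.0241). A further probe set of Col6a2 stood at 0.36 ± 0.28 in the fit of 12 arrays, so its direction depends on the probe set. Col6a3, the longest chain of the classical trimer, was also lower without overlap (-0.51 ± 0.19, adjusted p = 0.111). Col6a6, a later-described chain that can take the place of Col6a3, was higher: 6.28, 6.78 and 6.05 at day 7 and 7.65, 7.08 and 7.35 at day 35 (0.99 ± 0.24, adjusted p = 0.0276 with 6 arrays; adjusted p = 0.0818 with 12). So by the probe sets used 3 type VI chains lay lower at day 35 and 1 lay higher.

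Col14a1, a fibril-associated collagen that limits fibril growth, was at 9.97, 10.13 and 9.92 and then at 9.02, 8.82 and 8.98 (-1.07 ± 0.13, adjusted p = 0.00212 with 6 arrays). Col8a1, a short-chain network collagen of vessel walls, changed by -0.70 ± 0.17 (adjusted p = 0.0251 with 6 arrays), while its partner Col8a2 changed by 0.15 ± 0.32. Col7a1, the anchoring fibril chain, was lower without overlap at -1.16 ± 0.36 and did not pass (adjusted p = 0.0609 with 6 arrays). Col12a1, the close relative of Col14a1, was at -0.80 ± 0.27 with an overlap of the days (adjusted p = 0.0853). Col26a1 was lower without overlap at -0.69 ± 0.23 (adjusted p = 0.0844) and the transmembrane chain Col23a1 higher without overlap at 1.03 ± 0.32 (adjusted p = 0.0602), all in the 6-array fit. Col16a1, Col19a1, Col22a1, a collagen of the myotendinous junction, and Col25a1, a transmembrane collagen needed for motor innervation in the mouse, overlapped between the days and ranged from -0.50 to 0.22.

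**Figure D2:**
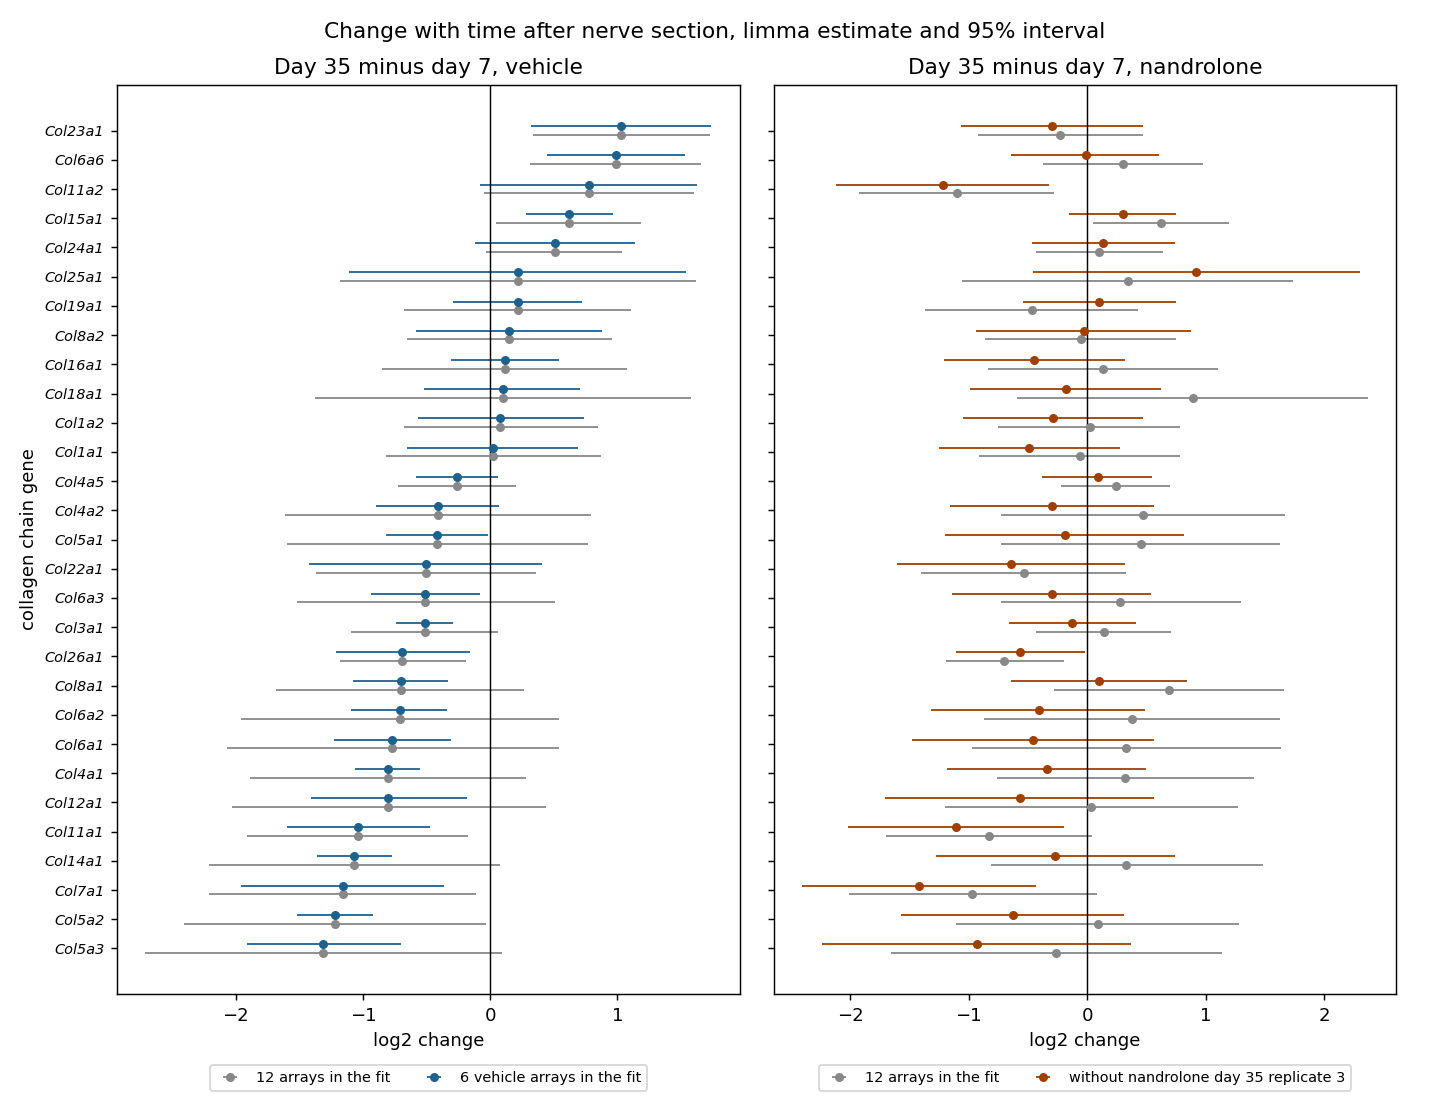
Log2 change from day 7 to day 35 (x axis) of the 29 collagen genes (y axis) under vehicle at left and nandrolone at right; points are limma estimates and bars 95% intervals. Grey marks the fit of 12 arrays, blue the fit of the 6 vehicle arrays and orange the fit without nandrolone day 35 replicate 3. The blue bars are mostly shorter than the grey ones, and the orange points lie to the left of the grey ones for most genes.

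The count of calls under vehicle turned on which arrays entered. With the 6 vehicle arrays it was 11. Over all 12 arrays with array quality weights it was 13, against 28.3% of all tested probe sets, and without replicate 3 of both nandrolone groups it was 8 of 31 (25.8%, against 11.8%). On leaving out vehicle day 7 replicates 1, 2 and 3 in turn it was 4, 6 and 5, against 6.62%, 5.57% and 4.67% of all tested probe sets. On leaving out vehicle day 35 replicates 1, 2 and 3 it was 5, 12 and 12, against 6.07%, 18.1% and 13.4%. Col5a2, Col4a1 and Col14a1 were called lower in all 6 of these fits. In the fit of 11 arrays without nandrolone day 35 replicate 3, 2 of 30 tested genes passed, Col15a1 (0.63, adjusted p = 0.0482) and Col6a6 (0.99, adjusted p = 0.0300), against 10.9% of all tested probe sets. Summed signals of other cell types also moved between the days under vehicle. Fibroblast markers (13 of 14 on the array, with Clec3b and Twist2 too low to be tested) summed to 17163 to 19996 at day 7 and to 20616 to 23992 at day 35, although 1 of them, the fibril-binding proteoglycan Lum, was lower without overlap and without a call (-1.11 ± 0.51, adjusted p = 0.21 with 12 arrays). Macrophage markers (15 of 15, with Itgam too low) summed to 4710 to 5901 and then to 2651 to 3374. Schwann cell and nerve markers (10 of 12, with Sox10 and Mag too low) summed to 3307 to 3760 and then to 4886 to 6237, and adipocyte markers (10 of 11, with Lep and Cidec too low) to 1736 to 1775 and then to 1934 to 3518. The median of the markers, each centred on its own mean, did not overlap between the days for fibroblast and macrophage markers. It overlapped for Schwann cell and nerve markers (-0.59 to -0.36, then -0.44 to -0.25) and for adipocyte markers (-1.07 to -0.49, then -0.52 to 0.41). So the sums of these last lists do not show a shift of the whole list. Sums of tendon and cartilage (8 of 12), endothelium, smooth muscle and pericyte, and skeletal muscle markers overlapped between the days. The part of these cell types in the collagen differences was not tested.

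The second comparison was between nandrolone and vehicle at day 7. No collagen gene passed, and no probe set did (0%). None of the 29 had an unadjusted p under 0.05, against 1.78% of all tested probe sets. The median change was 0.25 over the fibrillar, 0.21 over the basement membrane and 0.08 over the other chains, and 0 over all; 22 of 29 genes (75.9%) had a change above 0, against 49.4%. Col1a2 was the only gene whose arrays did not overlap, at 12.70, 12.72 and 13.64 under nandrolone against 12.49, 12.61 and 12.55 (0.47 ± 0.35, adjusted p = 1), and 3.9% of all tested probe sets were higher in this way. The largest changes were those of Col11a2 (0.71 ± 0.38), Col7a1 (0.57 ± 0.48) and Col12a1 (0.55 ± 0.57), with adjusted p = 1 in limma for each.

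One array set these values apart. Without nandrolone day 7 replicate 3 the medians were -0.04, -0.14 and -0.07, and 11 of 30 genes had a change above 0 (36.7%, against 51.6% of all tested probe sets). That array was the highest of its group in 21 of the 29 genes (72.4%), against 28.9% of all tested probe sets. Col5a2 was at 10.72, 10.97 and 12.46 under nandrolone, Col6a1 at 10.19, 10.02 and 11.89, and Col14a1 at 9.17, 9.80 and 11.31. In each, replicates 1 and 2 lay below all 3 vehicle arrays and replicate 3 above them. That array also held the highest summed macrophage signal of the 12, 12851 against 3588 and 5015 in the other 2 of its group, and fibroblast markers of 30343 against 15803 and 19932. Tendon and cartilage markers summed to 13977 there, against 8773 and 6978. Their part in the collagen values was not tested.

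The third comparison was between nandrolone and vehicle at day 35. Most chains were higher under nandrolone on average, but their replicates lay far apart and no collagen gene passed, as no probe set did (0%). An unadjusted p under 0.05 was found for 8 of the 29 genes (27.6%), against 8.54% of all tested probe sets. The median change was 0.67 over the fibrillar, 1.09 over the basement membrane and 0.38 over the other chains, against -0.04 over all. Without nandrolone day 35 replicate 3 these medians were 0.27, 0.18 and 0.27, and 2 of 30 genes (6.67%) had an unadjusted p under 0.05, against 6.44% of all. That array was the highest of its group in 23 of 29 genes (79.3%), against 33.6% of all tested probe sets.

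Type III and type XIV were higher in all 3 nandrolone arrays. Col3a1 was at 12.87, 13.14 and 13.81 under nandrolone and at 12.53, 12.66 and 12.53 under vehicle (0.70 ± 0.26; 0.44 ± 0.25 without replicate 3). Col14a1 was at 9.35, 10.30 and 11.61 against 9.02, 8.82 and 8.98 (1.48 ± 0.53; 0.90 ± 0.47 without replicate 3). These were the only 2 genes higher without overlap, which 4.33% of all tested probe sets were, and neither passed in limma (adjusted p = 0.562 for both; 0.820 and 0.796 without replicate 3). Col11a2 and Col23a1 were lower without overlap, as 7.31% of all were. Col11a2 was at 5.03, 5.18 and 5.56 under nandrolone against 5.65, 6.54 and 7.09 (-1.17 ± 0.38, adjusted p = 0.562; -1.29 ± 0.42 without replicate 3), and Col23a1 changed by -0.89 ± 0.32 (-0.95 ± 0.35 without it). These 2 values were about as large without replicate 3, but they did not pass the test.

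Other large values were smaller without replicate 3 too, as those of Col3a1 and Col14a1 were. Col12a1 had group means of 8.84 under nandrolone and 7.47 under vehicle, and Col8a1 of 9.18 and 8.07. With 1 array left out in turn, their changes ranged from 0.78 to 1.9 and from 0.53 to 1.69. Col4a1 was at 9.78, 10.99 and 12.36 under nandrolone against 9.81, 9.69 and 9.84, and changed by 1.27 ± 0.50, or by 0.62 ± 0.39 without replicate 3. Col18a1 was at 7.37, 7.36 and 10.58 against 7.17, 7.26 and 7.39, so that its 1.16 ± 0.68 became 0.09 ± 0.37. Col6a1 was at 9.79, 10.70 and 12.60 against 9.33, 9.83 and 10.21 (1.24 ± 0.60; 0.46 ± 0.47 without it). In Col5a2 the nandrolone arrays were at 10.18, 11.34 and 12.89 (1.33 ± 0.55; 0.63 ± 0.43 without it). Type I differed little: Col1a1 was at 12.61, 12.27 and 13.70 (0.16 ± 0.39; -0.26 ± 0.35 without it) and Col1a2 at 12.79, 12.68 and 13.64 (0.41 ± 0.35; 0.11 ± 0.35 without it). Col19a1, a fibril-associated collagen, went against the rest in that array, at 10.93, 10.02 and 8.77 under nandrolone and 10.96, 10.95 and 10.21 under vehicle (-0.80 ± 0.41; -0.23 ± 0.30 without it).

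In nandrolone day 35 replicate 3 markers of several other cell types were the highest of all 12 arrays: 20342 for Schwann cell and nerve markers against 5221 and 6293 in the other 2 of its group, 15261 for adipocyte markers against 2390 and 3297, and 6277 for endothelium markers (11 of 12) against 2282 and 3445. Fibroblast markers summed to 42224 against 23735 and 25550, and smooth muscle and pericyte markers (13 of 13) to 21349 against 13512 and 15445. The skeletal muscle markers were lowest there, at 149781. Their part in the collagen values was not tested. Sox10 and Cidec, too low over the 12 arrays to be tested, reached deposited signals of 722.3 and 973.2 at their highest.

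**Figure D3:**
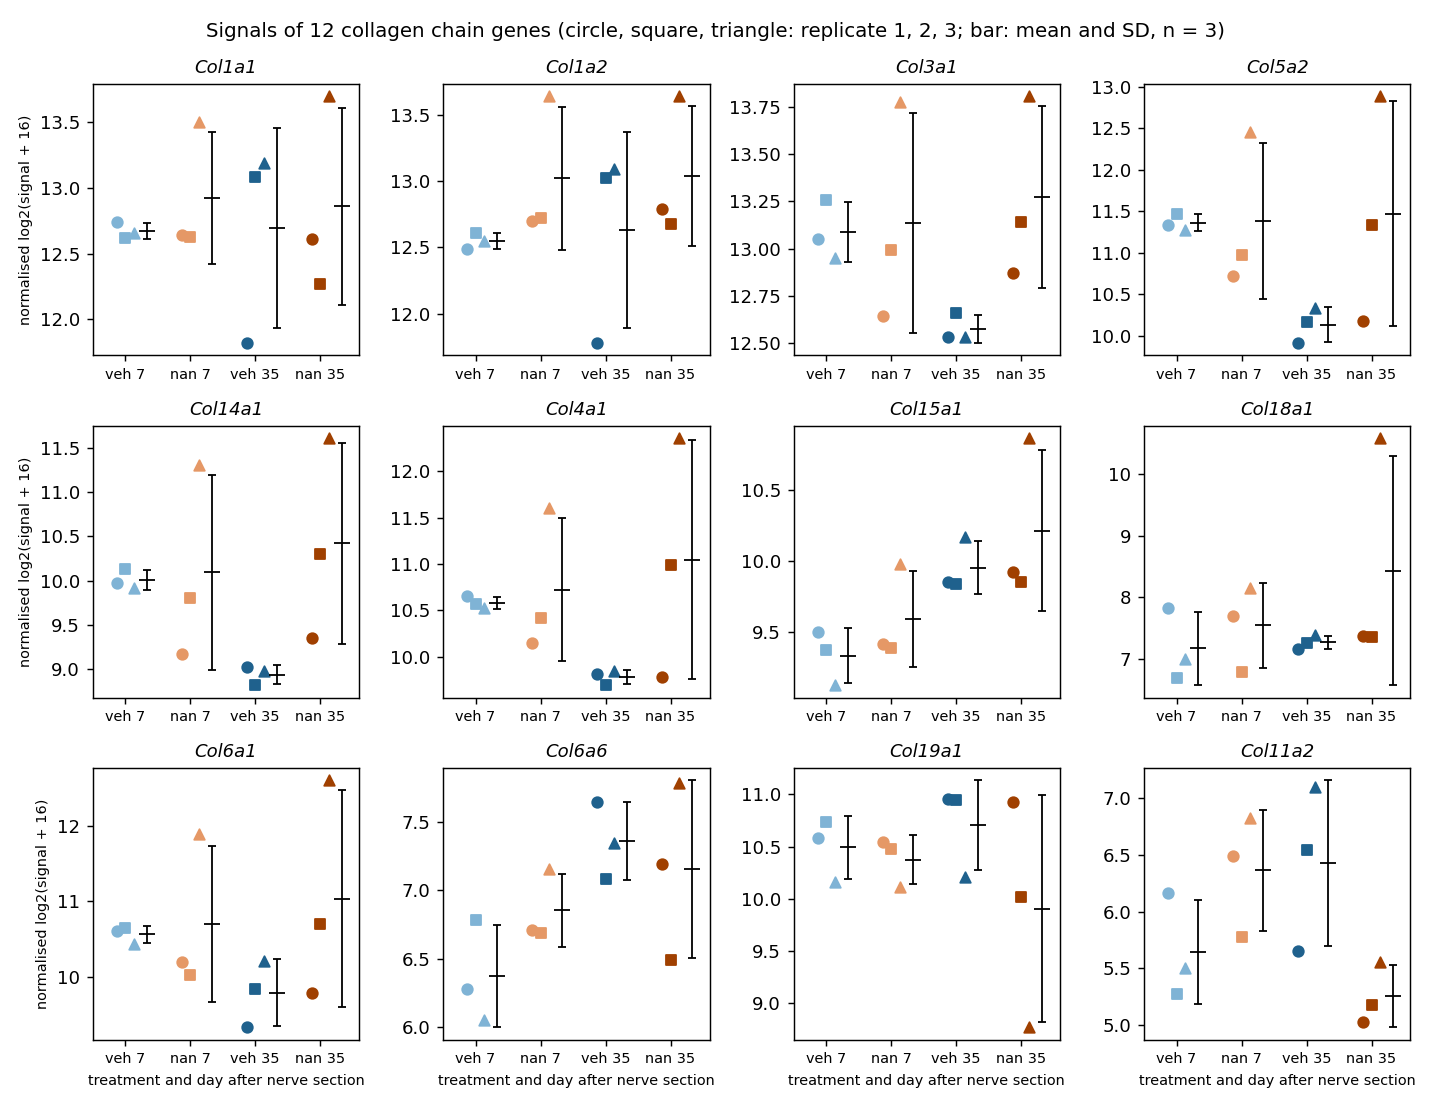
Normalised log2(signal + 16) (y axis) of 12 collagen genes on each array, by treatment and day (x axis; veh, vehicle; nan, nandrolone); circles, squares and triangles are replicates 1, 2 and 3, and bars the mean and SD of 3 arrays. Col3a1, Col5a2, Col4a1 and Col14a1 lie low and close together at vehicle day 35, and the triangles of both nandrolone groups lie above the other replicates in most panels.

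The fourth comparison was between day 35 and day 7 under nandrolone. No collagen gene passed, against 0.677% of all tested probe sets, and 3 genes (10.3%) had an unadjusted p under 0.05 against 14.5%. The median change was 0.02 over the fibrillar, 0.47 over the basement membrane and 0.13 over the other chains, with 19 of 29 genes above 0 (65.5%, against 48.9% of all tested probe sets). Without nandrolone day 35 replicate 3 the medians were -0.49, -0.18 and -0.30, and 23 of 30 genes were below 0 (76.7%, against 49.9% of all tested probe sets). No gene passed there either, against 0.542% of all. Col11a2 (-1.10 ± 0.38) and Col26a1 (-0.70 ± 0.23) were lower without overlap, which 9.2% of all were, and none was higher without overlap, against 7.28%. Without replicate 3, 5 of 30 genes (16.7%, against 13.1%) were lower without overlap and 2 (6.67%, against 14%) higher, with Col11a2 at -1.22 ± 0.42 and Col26a1 at -0.57 ± 0.25. The change had the other sign without that array in 15 of the 29 genes, among them Col3a1, Col4a1, Col5a2, Col6a1 and Col14a1. Col15a1 changed by 0.62 ± 0.26, as under vehicle, and by 0.30 ± 0.21 without replicate 3. Type I chains were at -0.06 ± 0.39 for Col1a1 and 0.02 ± 0.35 for Col1a2, and at -0.49 ± 0.35 and -0.29 ± 0.35 without replicate 3.

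The test of the difference between the nandrolone effects at the 2 days called no collagen gene and no probe set (0%). An unadjusted p under 0.05 was found for 3 genes (10.3%) against 4% of all: Col11a2 (-1.88 ± 0.54), Col23a1 (-1.26 ± 0.45) and Col8a1 (1.39 ± 0.63), with an adjusted p = 0.928 in limma for each. Without nandrolone day 35 replicate 3 there were also 3 of 30 (10%, against 4.95%), all below 0: Col11a2 stood at -1.99 ± 0.56, Col23a1 at -1.31 ± 0.48 and Col6a6 at -1.0 ± 0.39, while Col8a1, at 0.81 ± 0.46, was no longer among them. Col14a1 stood at 1.40 ± 0.75 and Col5a2 at 1.31 ± 0.78, and at 0.81 ± 0.62 and 0.61 ± 0.58 without that array. The median was 0.21 over all 29 genes and 0.11 over 30 without nandrolone day 35 replicate 3. The lower levels under vehicle were therefore not shown to differ from the course under nandrolone.

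Pairs of chains were followed against each other within an array, as differences from their own mean over the 12 arrays. They are chains of 1 collagen type, except Col4a1 and Col15a1, which belong to different collagens. Col1a1 minus Col1a2 spanned only 0.66 over the arrays, while the chains themselves spanned 1.88 and 1.86. Within that span it was at 0.04 to 0.27 at vehicle day 7 and at -0.12 to -0.04 at nandrolone day 7, without overlap. At day 35 the treatments overlapped, at 0.06 to 0.12 with vehicle and -0.39 to 0.08 with nandrolone. Col6a1 minus Col6a2 spanned 0.48 against 3.27 and 3.00, and Col4a1 minus Col4a2, the pair with overlapping promoter windows, 1.00 against 2.67 and 2.92. The values of Col6a2 are those of the probe set used, and its further probe set had the other sign for time under vehicle. The other type VI pairs, Col6a1 minus Col6a3 and Col6a2 minus Col6a3, spanned 1.00 and 1.01, or 0.78 and 0.66 without nandrolone day 35 replicate 3. In each of these pairs the difference spanned less than either chain. Col5a1 minus Col5a2 spanned 1.13 against 2.48 and 2.97, close to the type IV pair, but it was split by day under vehicle: it was at -0.56 to -0.05 at vehicle day 7 and at 0.44 to 0.57 at vehicle day 35, so the lower level of Col5a2 was not matched in size by Col5a1. Col4a1 minus Col15a1 was at 0.39 to 0.64 at vehicle day 7 and at -1.10 to -0.80 at vehicle day 35, which restates the opposite changes of these 2 genes given above. Col8a1 minus Col8a2 spanned 2.65 over the arrays, or 1.61 without nandrolone day 35 replicate 3.

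**Figure D4:**
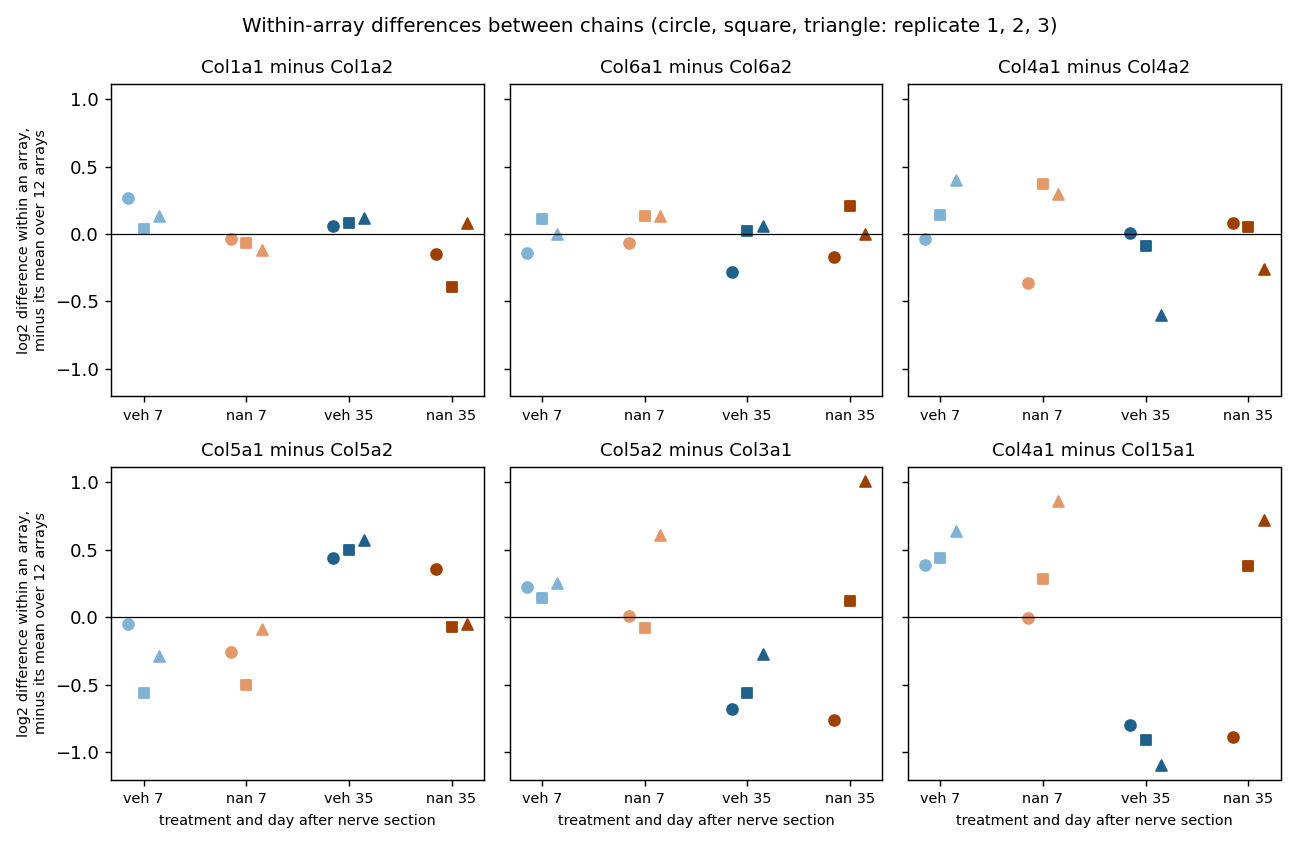
Difference in normalised log2 signal between both chains of a pair within an array, minus its mean over the 12 arrays (y axis), by treatment and day (x axis); circles, squares and triangles are replicates 1, 2 and 3. By the probe sets used, Col6a1 minus Col6a2 stays near 0 in every group. Col1a1 minus Col1a2 lies higher at vehicle day 7 than at nandrolone day 7. Col5a1 minus Col5a2 lies higher and Col4a1 minus Col15a1 lower at vehicle day 35 than at vehicle day 7. Col5a2 and Col3a1, like Col4a1 and Col15a1, are chains of different collagens.

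The spread between replicates was wide under nandrolone. The median SD of the 29 genes was 0.20 at vehicle day 7 and 0.38 at vehicle day 35, against 0.18 and 0.23 over all tested probe sets. Under nandrolone it was 0.64 at day 7 and 1.00 at day 35, against 0.25 and 0.32. The SD was higher under nandrolone in 22 of 29 genes (75.9%) at each day, as it was in 66.3% of all tested probe sets at day 7 and 63.8% at day 35. The median of the 29 genes, each centred on its own mean, was 0.11, 0.04 and -0.13 in the arrays of vehicle day 7, -0.15, -0.24 and 0.77 at nandrolone day 7, -0.73, -0.35 and -0.17 at vehicle day 35, and -0.54, -0.01 and 0.91 at nandrolone day 35. Over the 29 genes the 3 arrays of vehicle day 35 were all below the 3 of vehicle day 7, though the nearest, at -0.17 and -0.13, lay close together. Those of nandrolone ran from -0.24 to 0.77 at day 7 and from -0.54 to 0.91 at day 35. By class, only the fibrillar chains had vehicle days without overlap, at 0.20, -0.16 and -0.11 and then -0.97, -0.36 and -0.19. Their nearest arrays, at -0.16 and -0.19, lay closer together than the replicates of either day, so a difference between the classes is not shown. The basement membrane medians overlapped, at 0.12, -0.10 and -0.41 and then -0.43, -0.35 and -0.09. Those of the other chains did too, at 0.09, 0.13 and -0.21 and then -0.79, -0.34 and -0.17.

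Further probe sets were tested for some of the genes, 12 in all. Their change under vehicle had the sign of the probe set used above in 8 of 12. Col6a2 was at -0.71 and 0.36, Col18a1 at 0.10 and -0.27, Col1a1 at 0.02 and -0.13 and Col1a2 at 0.08 and -0.10. For Col5a2 the further probe set gave -1.02 ± 0.59, for Col4a1 -0.71 ± 0.49 and for Col14a1 -0.38 ± 0.33, in the fit of 12 arrays. For nandrolone at day 35 all 12 further probe sets had the same sign with all arrays, but without nandrolone day 35 replicate 3 those of Col6a2 were at 0.37 and -0.17.

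Genes that make, process, bind and degrade collagen were taken from 7 lists. Of the 18 tested genes of collagen synthesis and folding none passed for time under vehicle. Of 7 processing and crosslinking genes, Lox, the oxidase that starts crosslinking, fell by 1.68 on the log2 scale (-1.68 ± 0.45, adjusted p = 0.0487). Of 9 degradation genes Timp1, an inhibitor of metalloproteinases, fell (-2.45 ± 0.61, adjusted p = 0.0377) and Timp3, an inhibitor bound to the matrix, rose (1.63 ± 0.26, adjusted p = 0.00677). Of 17 genes of TGF-beta and profibrotic signals Postn, a matricellular protein that aids fibril assembly, fell (-2.66 ± 0.72, adjusted p = 0.0491) and Ltbp1, which holds latent TGF-beta in the matrix, rose (0.98 ± 0.24, adjusted p = 0.0344). Of 12 basement membrane partners Lamb2, a laminin chain of the synaptic basement membrane, rose (1.34 ± 0.19, adjusted p = 0.00368). Of 5 collagen receptors Ddr2, a receptor kinase for fibrillar collagen, rose (1.23 ± 0.23, adjusted p = 0.0131). None of 8 fibril-associated proteoglycans passed. Without nandrolone day 35 replicate 3 these calls were made again and 4 more genes passed, while 4.61% of all tested probe sets were called lower and 6.31% higher. Plod2, a lysyl hydroxylase of collagen (-1.03 ± 0.29, adjusted p = 0.0388), Tnc, the matrix glycoprotein tenascin C (-2.29 ± 0.61, adjusted p = 0.0323), and Fn1, fibronectin (-1.40 ± 0.36, adjusted p = 0.0283), were lower there. Podn, a small proteoglycan, was higher (0.89 ± 0.24, adjusted p = 0.0335).

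The calls named first are from the limma fit of 12 arrays, in which 2.17% of all tested probe sets were called lower and 3.44% higher. Those of Lamb2 and Timp3 held in all 31 alternatives run, whereas those of Ddr2, Timp1, Ltbp1, Lox and Postn were lost in 5, 9, 10, 12 and 15 of 31. Leaving out vehicle day 7 replicate 1, vehicle day 7 replicate 2 or vehicle day 35 replicate 1 ended each of these 5 calls, and other single arrays ended some of them. With 1 array left out in turn, the changes ranged from 1.16 to 1.31 for Ddr2, from -2.72 to -2.24 for Timp1, from 0.77 to 1.27 for Ltbp1, from -1.92 to -1.28 for Lox and from -2.99 to -2.46 for Postn. Under nandrolone Lamb2 (0.95 ± 0.19, adjusted p = 0.0438) and Timp3 (1.26 ± 0.26, adjusted p = 0.0493) rose from day 7 to day 35, and no other gene of the 7 lists passed, while 0.677% of all tested probe sets did. Both calls were lost on leaving out any 1 of the 12 arrays except nandrolone day 35 replicate 2, with changes of 0.77 to 1.05 for Lamb2 and 1.00 to 1.53 for Timp3. With the replicate number as a block Timp3 lost its call at an unchanged 1.26 (adjusted p = 0.0529). Between the treatments no gene of these lists passed at either day. At day 35 the lowest unadjusted p-values belonged to Timp1 (1.94 ± 0.61), P4ha3, a subunit of the prolyl hydroxylase (1.62 ± 0.52), and Ogn, a small fibril-binding proteoglycan (0.98 ± 0.32), with an adjusted p = 0.562 in limma for each. Without nandrolone day 35 replicate 3 these were 1.10 ± 0.44, 1.27 ± 0.55 and 0.68 ± 0.30. At day 7 they belonged to the proteoglycan genes Prelp (0.90 ± 0.35), Fmod (1.39 ± 0.58) and Podn (0.56 ± 0.26), with an adjusted p = 1.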

How the data were processed

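Total RNA of 12 denervated rat muscles was hybridised to 1-colour Affymetrix arrays. The authors deposited 1 intensity per probe set on a linear scale, made with MAS5 per the submitters' processing notes, which give no version; scaling and detection filters are not given in the sources used here. A further file, whose 12 columns are named only by number, was not used. Nothing in the labels says more of the rats than the replicate numbers in the titles, so p-values measure the spread between these samples.

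From the 31099 probe sets 57 controls were left out. To each signal 16 was added, log2 taken and quantile normalisation applied over the 31042 others. The 40% with the lowest mean were left out, and limma 3.58.1 (R 4.3.3, reading files by data.table at version 1.17.8) fitted 4 group means over all 12 arrays with an intensity trend, 8 residual degrees of freedom, two-sided tests and Benjamini-Hochberg adjustment over 18625 probe sets at 0.05. With 3 arrays a group precision is low; the smallest p of an exact permutation test would be 0.1. In the platform annotation 20826 probe sets have 1 gene, 436 have several and 9780 have no gene; all 41 collagen genes matched RefSeq gene IDs. Class medians describe the members and have no test. Where a fit leaves out an array of a group, the 2 left carry that group's mean. The code was tested on simulated data. Figures were drawn with matplotlib 3.10.9 in Python 3.11.15.

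The collagen genes and the gene lists were chosen with earlier results of these data known. Every collagen gene is accounted for; chains of types I, III, IV, V and VI, called genes and the largest changes of a class are given in full, and of each list the called genes or up to 3 with the smallest p. As a check of pairing by replicate number, deviations from the group means were correlated. The r was above 0.1 for all 3 numbers only between the nandrolone groups (0.162, 0.265 and 0.416). What these correlations rest on was not tested, and the labels give no pairing. The main fit therefore used no pairing in any comparison, and the replicate block was run as an alternative. Alternatives were the deposited scale, median centring, pseudocounts of 1 and 64, a filter of 60% and no filter, no trend, array quality weights, the replicate block, an adjusted p of 0.10, a fit of the groups compared only, averaging of all probe sets of a gene, and each array left out. Chosen after seeing the data were leaving out both nandrolone replicates 3, and leaving out each vehicle array from the fit of the vehicle arrays.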

Additional observations from a re-analysis of the deposited data

How the results depend on the processing

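Counts of called collagen genes were 0 under every alternative run for nandrolone at day 7, nandrolone at day 35, time under nandrolone and the interaction. For time under vehicle, where 0 were called with all 12 arrays, the count was 11 with only the 2 vehicle groups (13.7% of all tested probe sets were called), 13 with array quality weights (28.3%), 3 at an adjusted p of 0.10 (11.1%) and 8 without both nandrolone replicates 3 (11.8%). With 1 array of the 12 left out it ranged from 0 to 2. The 2 were called without nandrolone day 35 replicate 3 (6.67% of 30 genes, against 10.9% of all tested probe sets). With 1 array of the 6 vehicle arrays left out it ranged from 4 to 12 (in replicate order 4, 6 and 5 for the arrays of day 7, then 5, 12 and 12 for those of day 35; 4.67% to 18.1% of all). With the replicate block 0 collagen genes were called in every comparison, and the block changed no call of a collagen gene. None of the 28 values of single collagen genes and 9 of other genes that were run through the alternatives changed sign. The 28 were picked for an unadjusted p under 0.05 in the main fit or a call in the fit of the groups compared. The 9 were picked for a call in the main fit. This choice favours a stable sign, so the count says nothing of the other genes. Without nandrolone day 35 replicate 3, however, the sign turned in 4 of all 29 collagen genes for nandrolone at day 35 (Col1a1, Col15a1, Col16a1 and Col25a1), in 15 for time under nandrolone and in 6 for the interaction, none of them called.

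Class medians that moved by more than the spread between replicates were these. Without the filter on low signals, which adds genes near background, the medians of time under vehicle were 0.02 for fibrillar, 0.00 for basement membrane, -0.13 for other and -0.11 for all chains. With 1 array left out the fibrillar median of time under vehicle ranged from -0.50 to 0.07, the highest without vehicle day 35 replicate 1, and that of other chains from -0.69 to -0.22, the highest without vehicle day 7 replicate 1. For nandrolone at day 7 the median of other chains ranged from -0.07 to 0.44. Those of fibrillar, basement membrane and all chains did not move by more than that spread, but they fell below 0 (-0.04, -0.14 and -0.07) without nandrolone day 7 replicate 3. For nandrolone at day 35 the basement membrane median ranged from 0.18 to 1.69, and was 0.18 without both nandrolone replicates 3. For the interaction it ranged from 0.11 to 1.33, and the median of all chains was 0.72 with the 60% filter. The cause was not tested. Depth has no meaning for arrays; genes near background, the 12 not tested, have no reliable fold.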

Other observations

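Without the filter on low signals the 12 low collagen genes entered the fit, and none passed in limma. The lowest adjusted p among them was 0.111 for Col20a1, a fibril-associated collagen, for time under nandrolone.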
